A study of Mus musculus with 12 samples.

Results

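Hair follicle stem cells sorted from the back skin of Shh-heterozygous mice were compared between first telogen, the resting phase, and anagen II, an early step of the growth phase. Each stage was 1 library, so the comparison rests on 2 of the 12 libraries of the study and has no replicates: every ratio describes these libraries, and no test of the difference between stages was possible. Genes were taken from the joint table of all groups, after leaving out small RNA models, and 22442 gene symbols of 23735 gene models had a value in both libraries. Of these, 12586 had a mean of at least 1 FPKM (fragments per kilobase of transcript, scaled to library size) and are described below. A fold is the log2 ratio of FPKM + 1 in anagen II over first telogen, which understates the change of genes at low FPKM, and a gene is called higher or lower where that ratio passes 1, a 2-fold difference.

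Each library came from a female mouse of the strain labelled Agouti, at about postnatal day 23 (first telogen) and about day 26 (anagen II), both labelled Shh-Het (heterozygous for Shh), although their titles call them WT. Nothing in the labels places them with a Cre driver or tamoxifen. They are set beside a pair of groups from other mice in the same table. Those are wild-type (WT) cells of the second telogen from Black Swiss mice (a male aged 42 days and a female aged 46), and anagen cells from 2 FOXC1-Sox9CreER-heterozygous (Het) males of a Black Swiss and C57BL/6 mix at day 30, treated with tamoxifen. Those 2 groups share no library with the Shh-heterozygous pair and differ from it in strain, sex, age and genotype, and their values are deposited as 1 pooled value per group. The anagen mice of that pair were younger than its second telogen mice, so it contrasts 2 stages and does not follow time. The remaining groups are cells that lost Foxc1 through K14Cre (cKO, second telogen, days 42 and 46) or through tamoxifen-induced Sox9CreER (iKO, second telogen at day 60 and anagen at day 30), and serve here for levels only. All cells were purified by fluorescence-activated sorting.

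The hair follicle regrows in cycles. In telogen the bulge, an outer layer of slow-cycling stem cells, and the small hair germ beneath it are at rest under BMP and FGF18 signals. WNT signals and BMP inhibitors from the dermal papilla then start the hair germ and later the bulge dividing, Sonic hedgehog (SHH) from the new progeny feeds back on the bulge, and the progeny become the outer root sheath, inner root sheath and hair shaft. FOXC1, the transcription factor the study deletes elsewhere, is known to hold bulge cells in quiescence.

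Foxc1 had 42.6 FPKM in first telogen and 22.1 in anagen II, a log2 ratio of -0.92. It was at 27.5 in second telogen WT and 22.5 in day 30 anagen Het cells, against 1.32 to 3.17 in the 3 groups that lost it. Both Shh-heterozygous libraries therefore lay near the controls, far above every deleted group.

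Markers of the bulge were present in both libraries. Krt15, the classic bulge keratin, had 9222 FPKM in first telogen and 3294 in anagen II, and Krt14, a basal keratin, had 1452 and 1524. Of the 10 bulge markers checked none was at 0, with Cd34 at 401 and 129 FPKM and Lhx2, a bulge transcription factor, at 257 and 202. The 8 of them with a value in every group (all but Krt15 and Krt5) summed to 2479 FPKM in first telogen and 2110 in anagen II, both below the 3644 to 4994 of the other 5 groups. Krt14 was the largest part of each sum, at 2190 to 4351 FPKM in those 5 groups, so the sums mainly reflect Krt14. Cd34 ranged there from 230 to 883 FPKM and Lhx2 from 149 to 226, so first telogen was not low for either. The sorted cells were not free of dermal RNA. The summed level of 6 fibroblast markers (Col1a1, Col1a2, Col3a1, Pdgfra, Lum and Dpt) was 1933 FPKM in first telogen and 972 in anagen II, against 13.4 to 86.9 in the other 5 groups, and none of the 6 was at 0. In bulk RNA, fewer cells of a type and less RNA per cell cannot be told apart.

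The first telogen library stood apart from the others before any comparison of stages. It had 21878 gene models above 0, against 17388 to 17877 in the other groups. Of 1456 olfactory and vomeronasal receptor models, genes of sensory neurons, 1303 (89.5%) were above 0 in first telogen, with a median of 0.299 and a 95th percentile of 0.854 FPKM, while 38 to 60 were above 0 in any other group. The lowest receptor values clustered at 0.105 FPKM per kilobase in first telogen (169 models) and at 0.0273 in anagen II (10 models), which places 1 fragment at about 3.85 times as much FPKM in first telogen and makes that library the shallower. Of the kept genes, 157 were at least 4-fold higher in first telogen than in every other group, which by definition makes them lower genes. In anagen II, 46 stood apart that way. Of the 1060 higher genes, 154 had a first telogen level under the receptor 95th percentile, so their ratio depends on that low-level signal, whose part in the results was not tested beyond the values given here.

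Between the stages, 1060 of 12586 genes (8.42%) were at least 2-fold higher in anagen II and 1534 (12.2%) at least 2-fold lower, around a median log2 ratio of -0.08 over all kept genes. At 4-fold, 314 were higher and 404 lower, and at 8-fold, 93 and 108. Those 2 shares are the background against which each gene list is read below. Genes of mitosis, DNA replication and the hair shaft and root sheath lay mostly on the higher side. Immediate early, bulge surface, epidermal differentiation and circadian clock genes had more members lower than higher, with list medians of -0.98 or below.

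**Figure D1:**
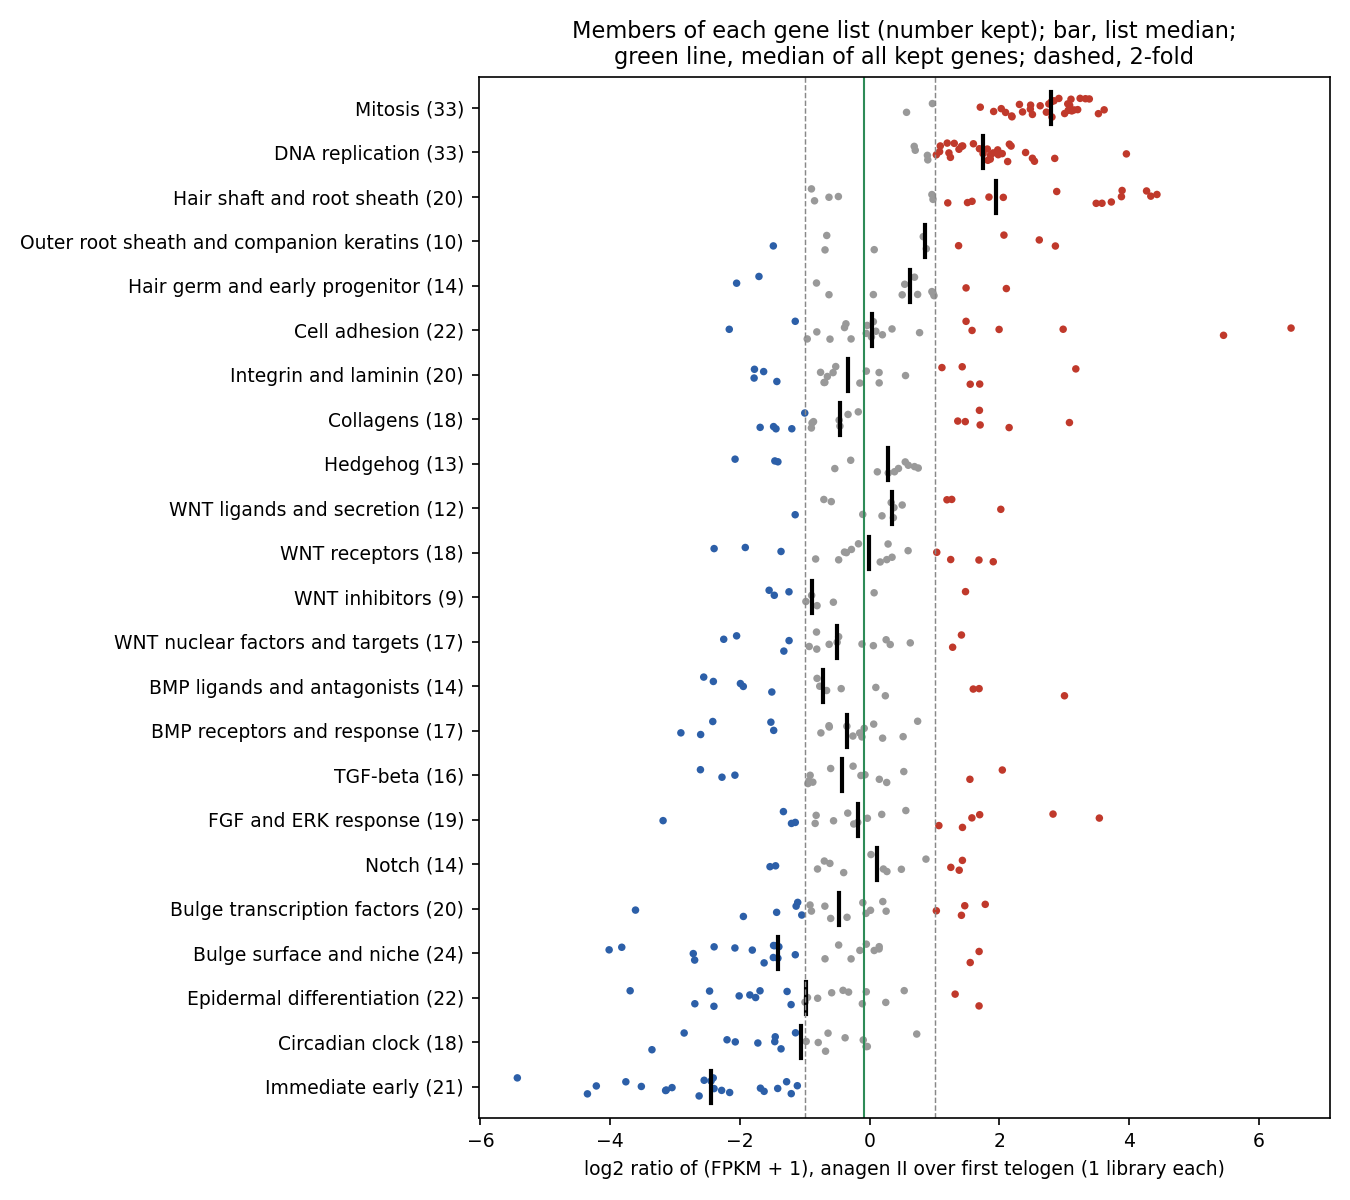
Log2 ratio of FPKM + 1, anagen II over first telogen (1 library each), for the kept members of 23 gene lists, 1 point a gene, with the list median as a black bar, the median of all kept genes (-0.08) as a green line and the 2-fold limits dashed. All but 2 of 33 mitosis genes lie right of the upper limit and all 21 immediate early genes lie left of the lower limit.

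Mitosis genes were higher almost throughout. Of 33 kept, 31 were called higher and none lower, with a median log2 ratio of 2.80. Mki67, the usual label of dividing cells, had 2.43 FPKM in first telogen and 28.7 in anagen II (log2 ratio 3.11), beside 1.02 in second telogen WT and 9.42 in day 30 anagen Het cells. Ccnb2, a cyclin that drives entry into mitosis, went from 2.16 to 37.6 FPKM, a ratio of 3.61, the largest of the list. Cdc20, which activates the anaphase-promoting complex, had 3.88 and 55.1 FPKM. Plk1, a mitotic kinase, had 1.75 and 27.8, and Birc5 (survivin), a member of the chromosomal passenger complex, 4.27 and 51.8. Hmmr (5.21 and 11.1) and Nuf2 (9.25 and 14.2) fell short of 2-fold. The authors' deposited table called 30 of these 33 genes higher in the day 30 anagen pair (q below 0.05, a call made for 12.4% of genes tested), with a smaller median of 1.62 against 2.80. Of the 31, 28 were called higher there too.

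Many mitotic promoters are known to carry a cell cycle homology region (CHR) close to the transcription start together with CCAAT boxes. Promoters were taken from RefSeq on GRCm38.p6, where 9390 of the 12586 kept genes matched, and the 250 bases before each start were searched on both strands for the CHR letters TTTGAA or TTCGAA and for CCAAT. A match to it was in 23 of 29 mitosis promoters (79.3%), against 36.6% of kept genes and 34.5% of all promoters. A CHR match was in 9 of 29 (31.0%), against 11.9% and 17.4%, and all 9 also held CCAAT, a combination found in 4.87% of kept genes. Of 27 DNA replication promoters, 16 (59.3%) held CCAAT, 6 (22.2%) a CHR match and 5 (18.5%) both, so the pair of motifs was not limited to mitosis genes. An E2F match (TTTGGCGC, TTTCCCGC, TTTGGCGG, TTTCGCGC, TTTCCCGG or TTTGCCGC, both strands) was in 7 of those 27 (25.9%) and in 2 of the 29 mitosis promoters (6.90%), against 5.79% of kept genes and 3.27% of all promoters. Over all higher genes with a promoter a CHR match was in 14.2%, and over all lower genes in 15.01%. Of the 27 higher mitosis genes with a promoter, at least 7 held both within the last 150 bases. Kif20a was not searched for this, so the count is a minimum. In Mki67 and Ect2 the last CHR match began at -98 and -114, counted from the start. The other 5 were chosen for a CHR within 30 bases of the start, so that position is set by the choice. Their 150 bases are printed 5′ to 3′ along the gene's strand to show where both motifs lie, with every CHR match (also read as TTCAAA) and CCAAT match (also read as ATTGG) in capitals. Counted from the start, the last CHR match began at -15 in Cdk1, -23 in Top2a, -19 in Kif11, -18 in Cdc20 and -29 in Ube2c. The windows are chr10:69352913-69353062 for Cdk1 and chr11:99024190-99024339 for Top2a on the minus strand, chr19:37376232-37376381 for Kif11 on the plus strand, chr4:118437344-118437493 for Cdc20 on the minus strand and chr2:164769779-164769928 for Ube2c on the plus strand.
Cdk1: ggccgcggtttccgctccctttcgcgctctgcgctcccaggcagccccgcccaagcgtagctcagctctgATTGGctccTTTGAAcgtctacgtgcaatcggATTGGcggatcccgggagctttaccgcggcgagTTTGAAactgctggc
Top2a: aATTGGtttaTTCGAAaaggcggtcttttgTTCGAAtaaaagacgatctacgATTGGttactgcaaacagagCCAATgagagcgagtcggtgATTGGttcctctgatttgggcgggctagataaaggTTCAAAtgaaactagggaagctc
Kif11: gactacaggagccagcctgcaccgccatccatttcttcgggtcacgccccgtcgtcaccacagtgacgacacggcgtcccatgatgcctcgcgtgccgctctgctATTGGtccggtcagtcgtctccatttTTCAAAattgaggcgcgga
Cdc20: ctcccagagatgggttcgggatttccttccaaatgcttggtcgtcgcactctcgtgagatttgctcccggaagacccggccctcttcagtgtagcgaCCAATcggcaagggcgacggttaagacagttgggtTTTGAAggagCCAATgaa
Ube2c: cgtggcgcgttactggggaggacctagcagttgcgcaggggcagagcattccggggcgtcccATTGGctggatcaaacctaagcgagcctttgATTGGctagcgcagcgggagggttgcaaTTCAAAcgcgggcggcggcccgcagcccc
A match of these letters is a description of the sequence and does not show binding.

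The genes behind those promoters were all several-fold higher in anagen II. Cdk1, the kinase that cyclin B activates, had 2.62 FPKM in first telogen and 29.6 in anagen II. Top2a, which untangles DNA before chromosomes separate, had 5.53 and 56.9. Kif11, the motor that pushes spindle poles apart, had 2.26 and 17.5. Ube2c, the ubiquitin enzyme that works with Cdc20, had 8.50 and 88.9. Their log2 ratios ran from 2.51 (Kif11) to 3.52 (Cdc20).

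DNA replication genes were higher as well, by less. Of 33 kept, 29 were called higher and none lower, with a median of 1.75. Tk1, which makes thymidine monophosphate for DNA synthesis, had 4.13 FPKM in first telogen and 78.6 in anagen II, a ratio of 3.96. Uhrf1, which guides DNA methylation at the fork, had 5.93 and 49.0. Mcm5, a subunit of the replicative helicase, had 7.36 and 47.6, and Rrm2, a subunit of ribonucleotide reductase, 9.69 and 59.8. Pcna, the sliding clamp, was already abundant and went from 104 to 214 FPKM, a ratio of 1.03. Pola1, Tyms, Ccne2 and Rfc3 stayed below 2-fold, with ratios of 0.69 to 0.90. In the day 30 pair 21 of 33 were called higher in the authors' deposited table (12.4% of all genes tested), at a median of 0.66.

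The upstream cell cycle regulators were mixed: of 15, 3 were higher and 2 lower, at a median of -0.16. Cdk4 had 88.6 FPKM in first telogen and 249 in anagen II, Ccnd2, a D cyclin, 18.6 and 49.5, and Cdkn2c, an inhibitor of CDK4 and CDK6, 4.55 and 25.6. Ccnd1 stayed under the limit, with 58.8 and 91.2 FPKM (ratio 0.63). The antiproliferative genes Btg2 (713 and 159) and Btg1 (128 and 41.5) were the 2 lower members. Cdkn1a, the p21 inhibitor, had 35.6 and 31.7, while in the other pair it had 192 in second telogen WT and 45.7 in day 30 anagen Het.

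Keratins of the inner root sheath and hair shaft were low in first telogen and several-fold higher in anagen II. Of 20 members kept of 29 matched, 14 were higher and none lower, with a median of 1.95. The 9 members not kept had a mean under 1 FPKM, and genes that pass only through anagen II had to differ, so this count is a description. Krt71, an inner root sheath keratin, had 1.81 FPKM in first telogen and 59.5 in anagen II, close to the 59.2 of day 30 anagen Het cells and against 0.641 in second telogen WT. Krt25 had 1.43 and 45.8, Krt27 had 0.567 and 22.2, and Krt35, a cortex and cuticle keratin, had 0.684 and 32.9. Tchh (trichohyalin), the granule protein of the inner root sheath, had 1.68 and 18.8. The hair shaft keratins Krt31 (0.317 and 3.71) and Krt33a (0.0754 and 3.48) were low in anagen II, below the 8.82 and 11.004 of day 30 anagen. The transcription factors of matrix and shaft did not pass: Hoxc13 had 24.6 and 49.4, Dlx3 21.0 and 41.8, and Gata3 62.4 and 33.0. Krt25, Krt27 and Krt28 lie near each other on chromosome 11, and Krt71, Krt72 and Krt73 near each other on chromosome 15, where related keratins can share reads.

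Among outer root sheath and companion layer keratins, 4 of 10 were higher and 1 lower. Krt17 had 308 FPKM in first telogen and 1891 in anagen II, a ratio of 2.61, and 861 and 2175 in the other pair. Krt75, a companion layer keratin, had 2.01 and 20.9. Krt8 and Krt19, simple epithelial keratins, had 1.76 and 10.6, and 2.55 and 8.18. Krt15 was the lower one, at a ratio of -1.49.

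Among the genes with the highest ratios were some of gap junctions and amino acid transport. Gjb2 (connexin 26, chr14:57717438-57723539 on mm9) had 6.30 FPKM in first telogen and 657 in anagen II, a ratio of 6.49, against 0.753 in second telogen WT, 55.9 in day 30 anagen Het and 190 in day 30 anagen iKO cells. Its neighbour Gjb6 (connexin 30, chr14:57742137-57752448) had 0.930 and 83.5, and Gja1 (connexin 43) had 119 and 949. Anagen II thus held the highest level of all 3 connexins among the 7 groups. Slc7a8, a neutral amino acid transporter, had 5.28 and 340 FPKM, Slc7a1, which carries cationic amino acids, 3.49 and 102, and Slc1a3, a glutamate transporter, 1.37 and 56.0. Gnmt, glycine N-methyltransferase, had 9.07 and 422 FPKM and was also high in day 30 anagen iKO (352) and Het cells (249).

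Of the 15 highest genes, counting models with 1 symbol, 10 were at least 4-fold higher in anagen II than in every other group, so they rest on 1 library. The authors' deposited table also called 13 of the 15 higher in the day 30 pair (12.4% of all genes tested). Dio3, which inactivates thyroid hormone, had 0.514 FPKM in first telogen and 37.4 in anagen II but 0.612 or less in every other group, and the 2-symbol model Dio3os,Mir1247 beside it had 0.357 and 265, a log2 ratio of 7.62, the highest of any kept model. Foxe1, a forkhead factor active in hair follicles, had 0.590 and 60.6, with 4.71 in day 30 anagen Het. Lrrc75b (1.48 and 69.5) and Ggt1 (0.790 and 70.5) are neighbours on chromosome 10. Krt35, Fhod3 and the smooth muscle gene Tagln complete the higher set with Krt71. Parp1, a DNA repair enzyme, went against the other pair: it had 15.03 and 350 FPKM here, but 119 in second telogen WT and 20.2 in day 30 anagen Het cells, where the authors' deposited table calls it lower.

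**Figure D2:**
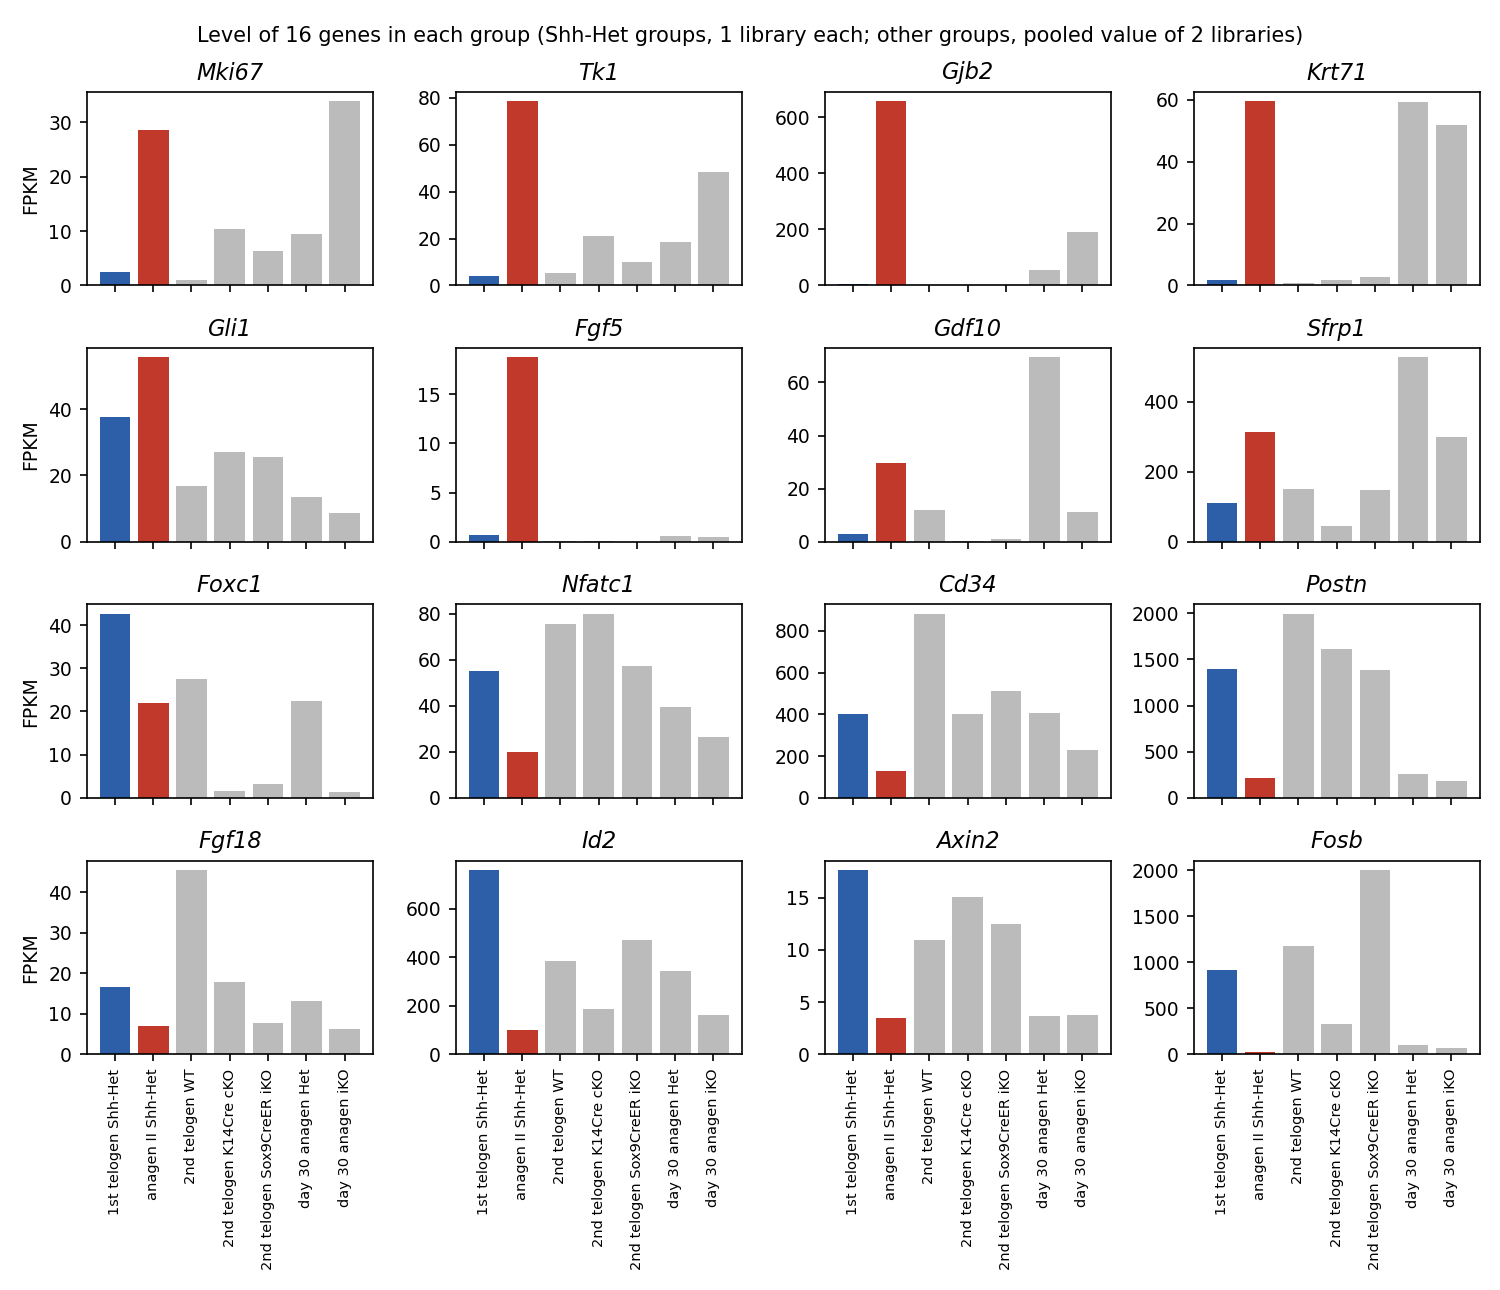
FPKM of 16 genes in the 7 groups as bars from 0, first telogen Shh-Het in blue, anagen II Shh-Het in red (1 library each) and the other groups in grey (pooled value of 2 libraries). No error bars are drawn, since each group has 1 value. Gjb2 reaches 657 and Gli1 55.7 FPKM in anagen II, each above every other group, while Postn is at 214 in anagen II and at 187 to 260 in both day 30 anagen groups.

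Basement membrane genes split by chain. Of 20 integrin and laminin genes, 5 were higher and 4 lower. Lamb1, the laminin beta 1 chain, had 10.7 FPKM in first telogen and 105 in anagen II, a ratio of 3.18, Lamc1 18.5 and 51.5, and Lama5 18.2 and 61.0, so all 3 of these chains, which assemble into a laminin of the follicle basement membrane, were higher. Lamb3, the beta chain of laminin 332, had 199 and 57.5, while the alpha chain Lama3 (26.3 and 17.5) did not pass. Itga6 and Itgb1, integrin chains of basal keratinocytes, had 62.6 and 56.3, and 119 and 131. Of 18 collagens, 6 were higher and 5 lower. Col4a1 (39.0 and 176) and Col4a2 (35.9 and 119) form the network of the basement membrane, and Col16a1 had 19.8 and 175. Col17a1, the hemidesmosomal collagen that maintains bulge cells, had 1053 and 376, and Col7a1, the anchoring fibril collagen, 170 and 52.1. The fibroblast markers given above were also lower in anagen II, and their part in the collagen values was not tested.

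Cell adhesion genes other than the connexins were fewer. Cdh3 (P-cadherin), a marker of the hair germ, had 37.3 FPKM in first telogen and 106 in anagen II, a ratio of 1.48, with 40.8 to 55.6 in the other 5 groups. Dsg2, a desmosomal cadherin, had 5.55 and 25.1, and Dsg3, the one of basal cells, 172 and 37.6. Cdh1 (E-cadherin) had 103 and 84.6. In all, 6 of 22 were higher and 2 lower, at a median of 0.04.

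Transcription factors of the bulge did not move together: of 20, 4 were higher and 6 lower, with a median of -0.48. Barx2 had 73.0 FPKM in first telogen and 253 in anagen II and was also high at day 30 (309). Vdr, the vitamin D receptor needed for hair cycling, had 98.5 and 274, and Tcf7l1, the WNT-repressing factor of bulge cells, 16.4 and 45.3, and both lay under these anagen II values in every other group. Tbx1 had 186 and 379. On the lower side, Nfatc1, which holds bulge cells quiescent, had 55.1 and 19.7 FPKM, Sox9 132 and 60.8, Hopx 239 and 108, and Foxp1 28.1 and 13.1. Zbtb16 had 29.7 and 1.51, a ratio of -3.61, and was lower at day 30 too (13.97 and 1.21). Foxc1 (-0.92), Lhx2 (-0.35), Nfib (-0.06), Nfix (0.01) and Runx1 (-0.60) did not reach 2-fold.

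Surface and niche genes of the bulge were mostly lower. Of 24 kept, 14 were lower and 2 higher, with a median of -1.41 beside -0.08 for all genes. Cd34, the surface marker commonly used to sort bulge cells, had 401 FPKM in first telogen and 129 in anagen II (ratio -1.63), beside 883 and 408 in the other pair. Postn (periostin) had 1395 and 214 here and 1994 and 260 there, and Ctgf, a matricellular YAP target, 1181 and 72.1 here and 1329 and 76.7 there. Krt24 had 353 and 24.1, Aspn 32.8 and 4.13, and Lgr6 33.3 and 5.50. Lgr5, a receptor for R-spondins, did not pass, with 102 and 72.8. Tnc (38.1 and 113) and Bmp6 (2.21 and 9.33) were the 2 higher members. Dcn, which is on this list but is also a fibroblast gene, had 235 and 66.4 FPKM, against 0.305 in second telogen WT. The authors' deposited table called 9 of the 14 lower genes lower in the day 30 pair (13.1% of all genes tested), and Dcn higher.

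Genes of the hair germ and its early progeny gave 2 higher and 2 lower of 14, with a median of 0.61. Cdh3 and Cux1 (3.70 and 19.2 FPKM), a homeodomain factor of the root sheath, were higher. Msx1, Hoxc13, Dlx3 and Krt79 had positive ratios below 1. Lef1, the WNT effector of germ and matrix, had 10.3 and 5.42, a ratio of -0.82, whereas the other pair had 1.08 and 2.58. Axin2 and Foxi3 (6.84 and 1.40) were lower.

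In the hedgehog pathway the ligand binds PTCH receptors, which frees SMO to activate the GLI factors, and PTCH1, GLI1 and HHIP are themselves induced by the signal. Shh, the gene for which these mice are heterozygous, had 0.667 FPKM in first telogen, inside the receptor background of that library, and 1.69 in anagen II, beside 0 and 1.37 in the other pair. Of the targets, Gli1 had 37.8 and 55.7 FPKM (a log2 ratio of 0.55) and Ptch1 18.6 and 20.3 (0.12), so neither passed 2-fold. Gli1 in both Shh-heterozygous libraries nevertheless exceeded the 8.69 to 27.2 of the other 5 groups, and Ptch1 exceeded their 4.07 to 8.84. The co-receptors were lower: Gas1 had 313 and 117, Boc 67.6 and 23.9 and Cdon 36.7 and 7.96. Smo (38.5 and 65.4), Sufu, Gli2, Gli3, Kif7 and Hhip were within 2-fold. These co-receptors were the 3 lower genes of the 13 counted.

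For WNT, ligands bind Frizzled receptors with LRP co-receptors, secreted SFRP and DKK proteins oppose them, and AXIN2 and NKD1 are induced as feedback. Of 12 ligand and secretion genes 3 were higher and 1 lower: Wnt5b had 3.16 and 15.9 FPKM, Wnt6 1.99 and 6.17, Porcn, which acylates WNT proteins, 11.8 and 28.1, and Wnt3 3.53 and 1.04. Wnt10a had 16.1 and 20.5 and Wnt10b 0.804 and 1.55. Of 18 receptor genes 4 were higher and 3 lower, among them Rspo1, an R-spondin, with 1.68 and 9.04, Ror2 with 2.82 and 11.3, and Fzd3 with 15.5 and 3.36. Of 9 inhibitors, 1 was higher and 3 lower. The higher one was Sfrp1, with 112 and 313 FPKM here and 151 and 527 in the other pair. Dkk3 had 148 and 62.0. The feedback targets Axin2 (17.7 and 3.51) and Nkd1 (9.59 and 1.23) were lower, as was Myc (42.3 and 16.3), and the repressors Tcf7l1 and Tle3 (16.9 and 42.3) were higher, which made 2 higher and 4 lower of 17 nuclear factors and targets. Axin2 was also lower at day 30 (10.994 and 3.67, q = 0.000444 in the authors' deposited table).

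For BMP, ligands and their secreted antagonists both had lower members. Of 14, 3 were higher and 5 lower, with a median of -0.72. Bmp6, a ligand of the quiescent bulge, was higher, with 2.21 FPKM in first telogen and 9.33 in anagen II, above the 1.35 to 4.57 of the other 5 groups. Gdf10 had 2.82 and 29.6, beside 11.9 and 69.4 in the other pair, and Bmp1, a procollagen protease despite its name, 21.2 and 66.2. Bmp2 had 16.2 and 3.32. Among antagonists, Grem1 had 85.6 and 13.7, Fst (follistatin) 228 and 42.1, and Nog (noggin) 32.3 and 7.63. Of the receptors and response genes 5 of 17 were lower and none higher. These were the inhibitor of differentiation genes Id1 (477 and 77.5), Id2 (762 and 100.5) and Id3 (512 and 178), with Smad9 (10.9 and 1.23) and Smad7 (27.7 and 9.31). Id4, of the same family, was not lower, with 113 and 161. It had 54.9 and 118 in the other pair, where the authors' deposited table called it higher. The receptors Bmpr1a (37.4 and 43.1) and Bmpr2 (20.2 and 15.6) and the transducers Smad1, Smad4 and Smad5 were within 2-fold. Id2 differed little in the other pair, with 383 and 345.

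In the TGF-beta group 2 of 16 were higher and 3 lower. Inhbb, an activin subunit, had 15.6 and 67.5 FPKM, and Ltbp3 62.7 and 185. Ltbp1 (42.9 and 9.40) and Ltbp2 (48.1 and 7.05), which bind latent TGF-beta or microfibrils, and the TGF-beta-induced matrix gene Tgfbi (456 and 93.3) were lower. Tgfb2, a ligand known to help start the hair germ, had 2.96 and 1.10.

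FGF genes split by role. Fgf18, the ligand that keeps telogen cells at rest, had 16.6 FPKM in first telogen and 6.93 in anagen II (ratio -1.15), beside 45.6 and 13.1 in the other pair, and Fgf1 had 35.0 and 2.96. Fgf5, the ligand known to end anagen, had 0.699 and 18.7, a ratio of 3.54, and 0.601 or less in the other 5 groups. The first telogen value of Fgf5 was under the receptor 95th percentile. Etv4 (7.37 and 58.3) and Etv5 (7.32 and 25.9), transcription factors that report FGF and ERK signalling, were higher with Dusp4, Fgfr3 (74.2 and 202) and Fgfbp1, whereas the feedback genes Spry2 (34.5 and 14.4) and Phlda1 were lower and Dusp6 (64.7 and 54.4) did not pass. That made 6 higher and 4 lower of 19. Etv4 had 4.72 and 4.59 in the other pair. Of 8 EGF family genes none was higher and 2 were lower, Hbegf (24.8 and 6.97) and Epgn (5.39 and 1.65). In the Notch pathway Notch1 (16.4 and 40.4), Notch3 (2.19 and 7.31) and the target Nrarp (13.3 and 37.6) were higher, Rbpj (36.3 and 12.6), the DNA-binding partner, and Mfng were lower, and Hes1 (79.2 and 59.7) and Jag1 (46.6 and 47.2) were within 2-fold, which made 3 higher and 2 lower of 14.

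Immediate early genes, which cells switch on within minutes of a stimulus and also during dissociation, were all lower. The list held 21 kept genes, all 21 called lower, with a median of -2.45. Fosb had 910 FPKM in first telogen and 20.1 in anagen II, Fos 2728 and 237, Atf3 1264 and 67.2, Egr1 1554 and 264, and Cyr61 1979 and 145. The day 30 pair had the same direction: the authors' deposited table called 20 of 21 lower in anagen than in second telogen (a call made for 13.1% of genes tested), with a median of -2.45. Fos had 4023 FPKM in second telogen WT and 474 in day 30 anagen Het. Klf2 had 149 and 6.37 here and was the 1 member of the list at least 4-fold above every other group in first telogen. The heat shock list did not move this way: 1 of 12 was higher (Hspe1, 93.6 and 228) and none lower, and Hspa1a had 71.7 and 132. The part of cell handling was not tested.

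Of 18 circadian clock genes 9 were lower and none higher, at a median of -1.06. Dbp had 37.6 FPKM in first telogen and 2.77 in anagen II, Nr1d1 (REV-ERB alpha) 60.8 and 7.52, Tef 77.7 and 16.1 and Nr1d2 35.6 and 7.71, all driven by the core clock. The core factors Arntl (13.7 and 13.3) and Cry1 (7.38 and 7.06) had nearly the same level. Collection times of day were not among the sources. In the other pair the authors' deposited table called 9 of the 18 lower in anagen and none higher, against 13.1% of genes tested called lower. Of these, 6 were also lower here, among them Nr1d1, Tef and Nr1d2. Dbp differed, with 1.15 and 1.51 there. Hormone receptors and their targets were mixed, with a median of -0.36: 2 of 16 were higher, Vdr and Ghr (13.4 and 32.2), and 6 lower, including the glucocorticoid receptor Nr3c1 (96.1 and 30.0) and the glucocorticoid-induced genes Tsc22d3 (96.1 and 24.9) and Fkbp5 (19.8 and 7.05).

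Genes of the differentiated epidermis were lower: 10 of 22, with 2 higher and a median of -0.98. Krt1 had 218 FPKM in first telogen and 40.6 in anagen II, Krt10 607 and 168, and Lor (loricrin) 65.6 and 11.04, which are suprabasal genes of the skin surface. Klf4, which drives barrier formation and is also an immediate early gene, had 731 and 55.7. Casp14 (3.81 and 14.5) and Sprr1a (13.6 and 35.4) were the 2 higher. In the other pair 14 of 22 were called lower in the authors' deposited table (13.1% of all genes tested). Genes of the junctional zone and sebaceous gland had 8 lower and 2 higher of 18: Scd3 had 12.5 and 0.217, Elovl3 8.59 and 1.22, and Scd1 63.8 and 22.1. The higher ones were Fads2, a fatty acid desaturase, with 2.15 and 57.3, and Lrig1, a junctional zone marker, with 33.7 and 113. Of 15 sterol synthesis genes none was lower, at a median of 0.42, and Sqle, an early enzyme of the pathway's sterol branch, had 12.8 and 30.1 and was higher.

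Growth, metabolism and interferon lists had medians from -0.30 to 0.49, with members on both sides. Calls in both directions were more frequent than over all genes (8.42% higher, 12.2% lower) in 2 of them. They were 20% each way for the IGF system, and 19.0% higher and 14.3% lower for glycolysis and hypoxia. For interferon and MHC genes, 8.33% were higher and 16.7% lower, so only lower calls were more frequent there. Of 24 ribosome biogenesis and MYC genes 2 were higher, Mycl (3.07 and 11.3) and Cad (8.18 and 22.1), and 2 lower, Myc and Odc1 (105 and 28.8), at a median of 0.03. Of 21 glycolysis and hypoxia genes 4 were higher and 3 lower. Hif1a had 43.8 and 109 FPKM, Egln3, which it induces, 4.19 and 28.9, and Eno1 44.7 and 124, while Bnip3 had 29.1 and 9.81. Of 10 IGF system genes, Igfbp7 (96.1 and 272) and Igfbp4 (163 and 399) were higher, and Igf1 (6.02 and 0.828) and Igfbp6 (65.2 and 24.7) lower. Of 12 interferon and MHC genes, Irf7 (1.64 and 12.98) was higher, and B2m (406 and 166) and Irf1 (9.22 and 3.78) were lower.

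Markers of other cell types moved with these results. Each whole list is given by its count and sum, with the sums of a few defining markers beside it. Of 18 fibroblast and dermal papilla genes 8 were lower and none higher. Col3a1 had 582 FPKM in first telogen and 213 in anagen II, and Pdgfra 174 and 50.3, against 0.382 and 0.176 in second telogen WT. The list summed to 2992 and 1503 FPKM in the pair. Of 14 endothelial and pericyte genes 7 were lower and 2 higher, and the list summed to 149.6 and 683 FPKM. The 2 higher were the contractile genes Acta2 (16.8 and 254) and Tagln (17.5 and 369), while Cnn1 (1.74 and 2.09) and Myh11 (1.79 and 0.854) of smooth muscle were not higher. The endothelial markers (Pecam1, Cdh5, Kdr and Emcn) summed to 37.8 and 5.17, against 0.120 to 2.94 in the other 5 groups, and all 4 were lower. Of 18 immune genes 13 were lower and none higher, with list sums of 470.1 and 124 FPKM. The immune markers (Ptprc, Cd3e, Cd207, Cd74, Csf1r and Tyrobp) summed to 230 and 18.3, against 9.95 to 94.0, with 5 of 6 lower. Of 7 muscle and adipocyte genes 5 were lower and none higher, with list sums of 216 and 51.1, and the adipocyte markers summed to 179 and 40.6, nearly all of it Fabp4 (177 and 40.1). Suprabasal epidermal markers summed to 895 and 225, against 294 to 2646 in the other groups. Melanocyte genes were mixed. Of 9 kept, 4 were higher and 1 lower, and the list summed to 65.3 and 74.3 FPKM. Mitf, the central factor of that lineage, was the lower one, with 35.1 and 3.66, a ratio of -2.95, while pigment genes such as Mlana (1.05 and 15.6) and Dct (4.15 and 14.2) were higher and 5 pigment markers summed to 13.4 and 51.3. Of 5 Schwann and nerve genes 2 were higher, S100b (0.768 and 5.46) and the nerve growth factor receptor Ngfr (2.06 and 34.9), and none was lower. No defining marker matched for any type was at 0 in either library. In first telogen 89.5% of the sensory receptor models were above 0 too, so a value above 0 there does not set a marker apart. The part of these cells in the results above was not tested.

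**Figure D3:**
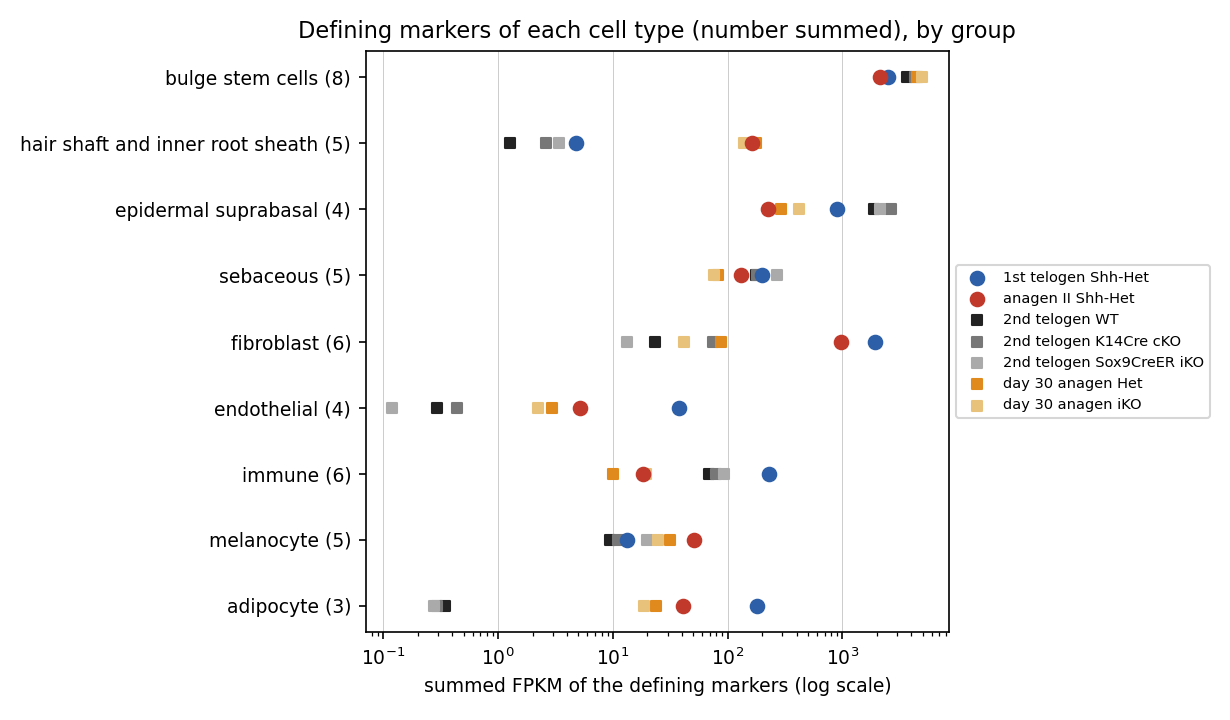
Summed FPKM of the defining markers of 9 cell types in each of the 7 groups, on a log axis, with the number of markers summed in brackets. Both Shh-heterozygous libraries (round points) hold more fibroblast marker RNA, 1933 and 972 FPKM, than any other group, whose highest sum is 86.9, and hair shaft and inner root sheath markers sum to 4.81 at first telogen and 164 at anagen II.

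The lowest ratios of all came from genes particularly high in the first telogen library. Of the 15 lowest, 12 were at least 4-fold higher there than in every other group. Rmrp, the RNA of RNase MRP, had 6472 FPKM in first telogen, 8.62 in anagen II and 2.95 to 94.1 elsewhere. Rpph1, the RNA of RNase P, had 2629 and 2.67, and Rprl3, a relative of it, 3025 and 1.82. These are short transcripts without a poly(A) tail, which an mRNA preparation is not built to capture. The same pattern held for Tmem38b (167 and 6.21, and 4.31 to 5.79 elsewhere), Zfp488 (279 and 6.62), Grk4 (163 and 3.46) and 3 sensory receptor models. Among the 15 lowest genes without that pattern, a set chosen after its values were seen, 14 were called lower in the day 30 pair in the authors' deposited table. Such genes need another group within 4-fold of first telogen. That group can be second telogen WT, the telogen side of the day 30 pair, so the choice itself partly sets this count. The 15 include Fosb, Atf3, Ctgf and Krt24, described above, with Serpinb10 (58.6 and 0.755), Wfdc3 (118 and 3.28), Fcgbp (63.4 and 2.19), Il31ra (122 and 6.81), Sncg (45.6 and 2.08) and Cd74 (200 and 12.7).

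Across all genes, the comparison of day 30 anagen with second telogen shared many calls with the Shh-heterozygous pair. Over all 12303 genes tested there, 12.4% were called higher and 13.1% lower. Of 1041 higher genes tested in both, the authors' deposited table called 599 (57.5%) higher and 23 lower at day 30, and those 599 were 39.4% of the 1521 called there. Of 1351 lower genes, 643 (47.6%) were called lower and 73 higher, and the 643 were 39.8% of 1615. Across 12580 genes the log2 ratios of both comparisons had a Spearman correlation of 0.48 and a Pearson correlation of 0.54, given as a description, since genes are not independent and all groups were scaled in 1 table. Lists differed in size between the pairs. Mitosis had a median of 2.80 here and 1.62 there and hair shaft and root sheath genes 1.95 and 2.65, and whether these sizes differ was not tested. Opposite directions included Dcn, Dpt, Pecam1 and Fabp4, which were lower in anagen II than in first telogen and called higher in day 30 anagen than in second telogen by the authors' deposited table, with Parp1 the other way round.

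**Figure D4:**
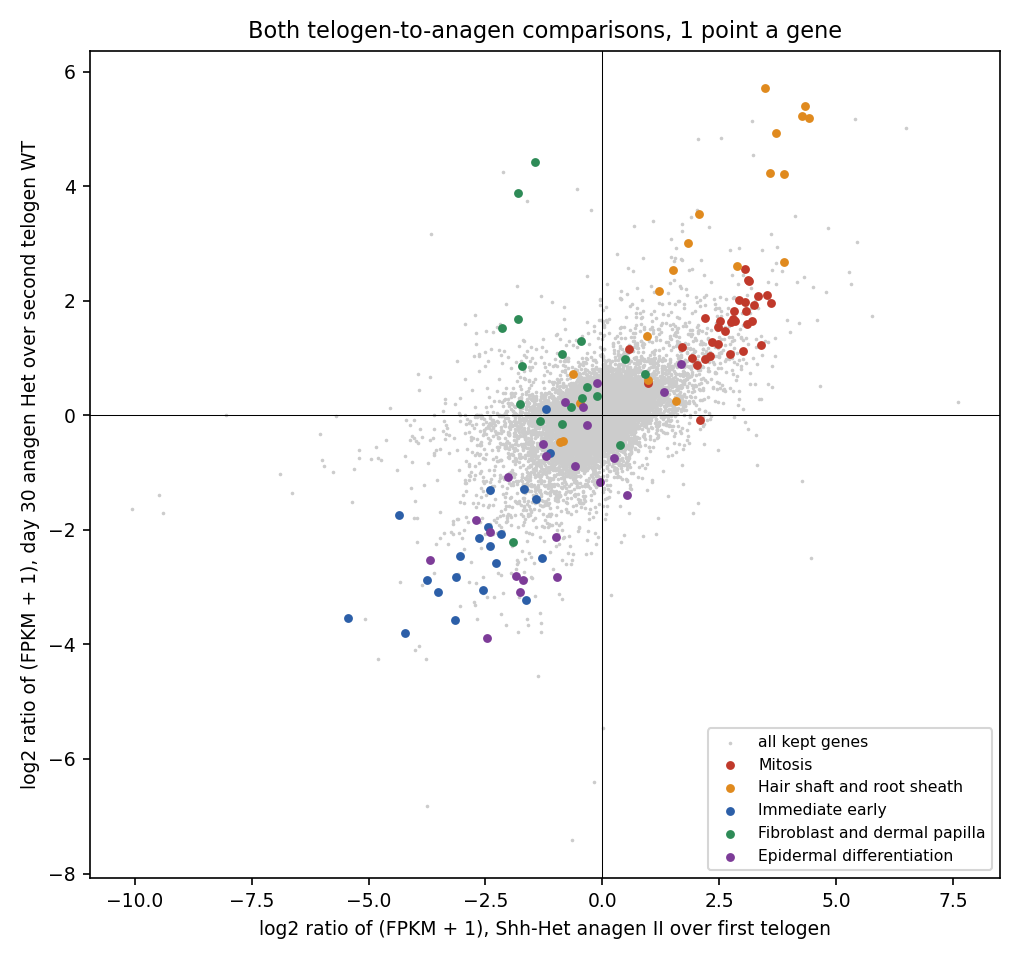
Log2 ratio of FPKM + 1 in the Shh-heterozygous pair (horizontal) against the day 30 pair (vertical), 1 point for each kept gene, with 5 lists in colour. Mitosis and hair shaft genes lie at upper right and immediate early genes at lower left, while several fibroblast genes, such as Dcn at -1.81 and 3.88, lie at upper left.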

How the data were processed

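RNA was measured by mRNA sequencing of sorted cells, with libraries made by the TruSeq mRNA kit, per the labels' protocols. Reads were handled with TopHat, Cufflinks and Cuffdiff on mouse build mm9, per the submitters' processing notes, which give no version. Expression is in FPKM, made by the authors with Cuffdiff and deposited as 1 value per group and gene, so a group of 2 libraries has 1 pooled value. The q-value used for the day 30 pair was deposited by the authors, and a gene was called at a q-value below 0.05. The gene members and lists were chosen with earlier results of these data known.

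Ratios were computed as log2((FPKM + 1) / (FPKM + 1)) in Python 3.11.15 with pandas 2.3.3, over symbols with a mean of at least 1 FPKM. 1074 small RNA models were left out, and 147 symbols on more than 1 row were represented by the row with the highest mean. A further 10 loci, among them Jarid2, Lars2 and Sfi1, carried a failed status with 1 library listed at 0 and were left out as failed estimates, although the plan had kept every row. Symbols of 675 of 685 list genes matched, and 40 lists were used. A few genes of the hedgehog, sterol and laminin lists are not reported here and were taken out of those lists after their values had been seen, so the counts of higher genes in them are incomplete. Named genes were 16 set ones (15 of which are described, Krt6a not being analysed here), the 15 at each end of the ratios, and the 4 largest ratios of a list, with members added to give a ligand, receptor or target. No counts are given, so total depth is unknown and no counting interval was made. The ratio and call were run on simulated data without differences between mice or signal from other cells. That run checked the computation only and gives no error rate for the calls made here. Alternatives were the pseudocount, the filter, centring, the row status and the threshold.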

Additional observations from a re-analysis of the deposited data

Results flagged for a closer look

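Signal at sensory receptor genes appeared in the first telogen library, outside the main measurement: the median of its olfactory and vomeronasal receptor models was 0.299 FPKM, against 0 in each of the other 6 groups. Direction was compared between the Shh-heterozygous pair and the day 30 pair for the genes picked by rule: set in advance, extreme, or largest in a list. Few differed in direction by at least 2-fold in both pairs with a call in the authors' deposited table. The log2 ratio of Parp1 was 4.45 in the Shh-heterozygous pair and -2.50 in the day 30 pair. Dcn had -1.81 and 3.88, Dpt -2.16 and 1.52, Pecam1 -2.63 and 1.07, and Fabp4 -2.12 and 4.24. Members named above only to give a ligand, receptor or target were not compared this way. Fgfbp1, a further named member outside that comparison, had 1.07 and -1.13 and was called lower in the day 30 pair. The difference between the pairs was not tested, since values are pooled and the Shh-heterozygous groups hold 1 library each.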

How the results depend on the processing

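No paired analysis was possible because each stage is 1 library, and for the same reason no library could be left out. With a pseudocount of 5 FPKM, 628 genes were higher and 679 lower, and with a 1.5-fold threshold 2041 and 2867, against 1060 and 1534. With a minimum mean of 5 FPKM, 793 were higher and 847 lower. The other alternatives gave 1014 to 1238 higher and 1377 to 1948 lower genes. No gene called in 1 direction was called in the other under any alternative, but these settings could hardly turn a ratio round. The pseudocount, filter, threshold and row status cannot change its sign, and the rest shift it little. The share of higher among all calls, 40.9%, was between 38.1% and 48.4% throughout, and was 46.0% when ratios were centred on the median of all genes. Keeping the 10 failed loci gave 1067 and 1536, and subtracting the receptor median from first telogen 1152 and 1395, both chosen after the data were seen. No named gene past 2-fold changed sign under the settings run for it, which says little for the same reason. Of those computed, 126 of the 788 gene ratios and 16 of the 399 list medians moved by more than 1.5-fold. Medians of 4 lists changed sign: WNT receptors, at -0.0055, had 0.077 when centred, 0.052 with no filter and 0.0041 with the receptor median subtracted. That subtraction also gave 0.0034 for FGF and ERK genes (-0.18), a minimum of 5 FPKM gave -0.0876 for hedgehog genes (0.29), and no filter gave -0.32 for Schwann and nerve genes (0.74).

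Set against the day 30 pair were 195 genes picked by rule, a set that does not hold every gene named in the text. Of these, 24 past 2-fold had the opposite sign there: the ratio there was -2.50 for Parp1, 0.13 for Tmem38b, -0.085 for Vdr, 0.34 for Gas1, -0.37 for Porcn, 0.0178 for Sfrp4, 0.20 for Sfrp2, -0.0324 for Etv4, -0.19 for Nrarp, -0.16 for Notch3, 0.16 for Elovl3, -0.87 for Lama5, -0.31 for Cad, 0.22 for Dbp, 0.40 for Igf1, -0.68 for Igfbp7, 1.52 for Dpt, 1.69 for Lum, 3.88 for Dcn, 0.67 for Vwf, 1.07 for Pecam1, 4.24 for Fabp4, 0.0621 for Myl1 and 0.17 for Acta1. Outside that set, Fgfbp1 (-1.13 there) and Dusp4 (-0.63 there) were among further named genes with the opposite sign. The cause was not tested. Depth limits genes near 1 FPKM most in first telogen, the shallower library.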
